A study of Mus musculus with 6 samples.

Results

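The 8 genes Zar1, Zar1l, Npm2, Bnc1, Sebox, Trim28, Uchl1 and Pou5f1 were followed in mouse oocytes that had lost the RNA acetyltransferase gene Nat10. They were taken by symbol from a count table of 25239 genes, in which each of the 8 had a row, and each passed the filter on low counts. They were grouped as maternal-effect genes, whose products the mother stores in the egg and the embryo uses before its own genome is active. Whether each of the 8 has a maternal effect was not tested here. The data are poly(A) RNA libraries in 2 groups of 3, made by Smart-seq2, which copies whole transcripts from few cells. The first group is fully grown oocytes of Gdf9-cre Nat10 cKO females (cKO), in which Nat10 was removed by a Cre recombinase driven by Gdf9, a gene expressed in oocytes. The second is fully grown oocytes of WT females. Oocytes of both groups were collected 36 to 48 h after PMSG, a gonadotropin that stimulates follicle growth. The strain, the age of the females and the number of oocytes per library are not given in the labels.

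Transcription stops as a mouse oocyte reaches full size, and the egg then relies on the stock of mRNA laid down during growth. Whether transcription had stopped in the oocytes measured here was not tested. Maternal-effect genes act at several points after growth. Some keep this stock silent and intact, some prepare the chromatin of sperm and egg for fusion, some are transcription factors of the growing oocyte or the early embryo, and some act on ubiquitin, the tag for protein turnover. NAT10 is the enzyme that places N4-acetylcytidine on RNA. The comparison asks what its absence in the oocyte does to the stored transcripts.

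Library totals lay between 26288767 and 28623598 counts in cKO and between 20167665 and 29407659 in WT. Nat10 itself averaged 7.60 ± 0.41 CPM (counts divided by scaled library size) in the cKO libraries and 52.5 ± 10.5 CPM in the WT libraries (SD, n = 3 each), and no library went against its label. All 12 oocyte identity markers, such as Gdf9 and Zp3, were above 1 CPM in every library. Of 22 granulosa and cumulus markers 11 to 13 were under 1 CPM in a cKO library and 9 to 11 in a WT library. Tnfaip6 was at 0 in all 6 libraries. Of the 15 markers of this list with enough counts for edgeR's test, 0 were higher and 5 lower in cKO (Inha, Inhbb, Hsd17b1, Gja1 and Esr2). That is 33.3% of the tested markers, beside 40.2% of all genes tested (20.1% higher and 20.1% lower). The median log2 fold change over the 15 was -0.53, and at an unadjusted p under 0.05 the counts were 1 higher and 7 lower. DESeq2 called 0 and 5, and limma-voom 0 and 6. The summed level of that list was 514 to 606 CPM in cKO and 684 to 769 CPM in WT. Its largest terms were Serpine2 (398 CPM in cKO and 408 CPM in WT) and Esr2 (80.6 CPM in cKO and 207 CPM in WT). Of 20 theca, stroma, blood and immune markers the summed level was 80.2 to 84.8 CPM in cKO and 74.6 to 85.2 CPM in WT, with all 4 globin genes at 0. The part of follicle cells in the results below was not tested. The labels do not say whether replicate libraries came from separate females, so p-values cover only the variation between libraries, which may be technical. A lower value of a transcript can mean fewer contributing cells or less RNA per cell, which cannot be told apart here.

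The 8 genes did not move together. Sebox and Bnc1 fell to 24.3% and 37.6% of WT, Zar1l fell to 76.3% of WT, and Trim28 rose 1.77-fold, while Zar1, Npm2, Uchl1 and Pou5f1 did not pass the test. A gene was called when edgeR's quasi-likelihood test, fitted and Benjamini-Hochberg adjusted over all 14114 genes tested, gave an adjusted p under 0.05. Adjusted p-values below come from that test. By that rule 1 of the 8 genes was higher and 3 were lower in cKO. Of all genes tested 40.2% were called, 20.1% higher and 20.1% lower, so 4 calls among 8 genes is near the background. The CPM values of the 2 genotypes did not overlap for the same 4 genes, against 52% of all genes tested. The median log2 fold change of the 8 was -0.02, beside 0.01 over all genes tested. These fold changes compare each gene with the bulk of transcripts in the same library. ERCC spike-in RNA took 0.34% to 0.43% of reads in cKO and 0.25% to 0.32% in WT, and scaling by it moved the median of all genes to -0.39 and the 8 genes to 0 higher and 4 lower (edgeR, all genes: 1182 higher and 4832 lower, against 2836 higher and 2838 lower with TMM factors, edgeR's default scaling). With library totals alone the median was 0.12, with 3450 genes higher and 2253 lower.

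**Figure D1:**
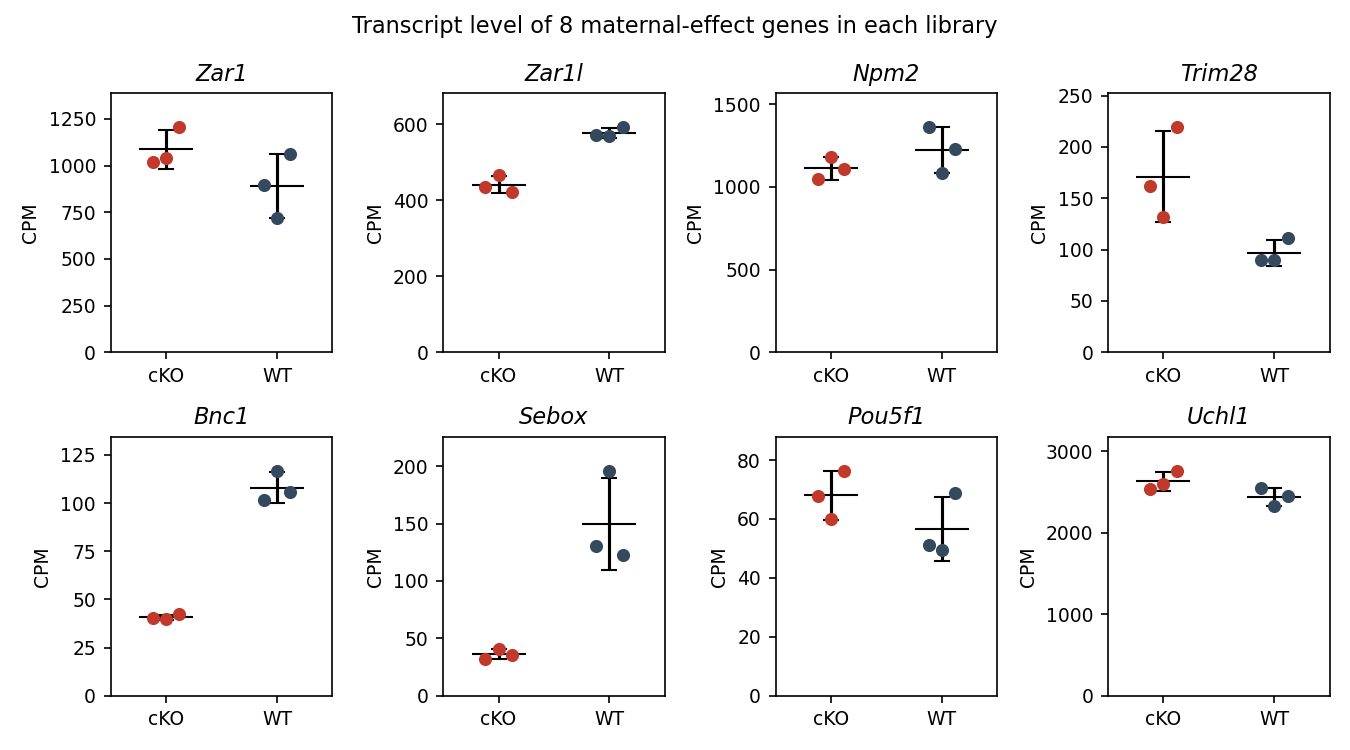
Transcript level in CPM of each of the 8 genes, with cKO libraries (red, left) and WT libraries (dark blue, right) as points and the mean ± SD of 3 libraries in black. Bnc1, Sebox and Zar1l lie lower in every cKO library than in any WT library, Trim28 lies higher, and the points of the other 4 genes overlap.

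The first role among these genes is the keeping of maternal mRNA. ZAR1 is an RNA-binding protein with a zinc-binding domain at its C terminus that gathers stored mRNA around the mitochondria of mammalian oocytes, and embryos of Zar1-null mouse females arrest soon after fertilization. ZAR1L is its paralog in the oocyte. Both genes lie on the minus strand of chromosome 5, Zar1 from 72577114 to 72581084 and Zar1l from 150507055 to 150518159 (mm10), and each has 4 exon intervals in the count table. Their promoters, from 250 bases before to 50 bases after the start of transcription in RefSeq (build GRCm38.p6), are shown because Zar1l was called and its paralog Zar1 was not. Capitals in all promoters shown mark matches on either strand to 7 motifs. The E-box CANNTG is the site type bound by the oocyte factor FIGLA. The NOBOX element, bound by another oocyte factor, was searched as TAATTG and as the variant TAGTTG, and the core of homeobox sites as TAATTA. The general promoter motifs were the GC box, spelled GGGCGG, the box named for its letters CCAAT, and the TATA box in the form TATAAA. No match in these promoters overlapped another. The Zar1 window is chr5:72581035-72581334, minus strand, and that of Zar1l is chr5:150518110-150518409, minus strand.
Zar1 promoter: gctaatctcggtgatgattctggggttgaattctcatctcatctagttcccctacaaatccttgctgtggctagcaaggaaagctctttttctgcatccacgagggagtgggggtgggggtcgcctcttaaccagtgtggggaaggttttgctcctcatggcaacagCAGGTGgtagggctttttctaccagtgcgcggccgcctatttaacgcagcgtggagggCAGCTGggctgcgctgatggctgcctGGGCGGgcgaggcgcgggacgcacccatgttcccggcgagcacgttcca
Zar1l promoter: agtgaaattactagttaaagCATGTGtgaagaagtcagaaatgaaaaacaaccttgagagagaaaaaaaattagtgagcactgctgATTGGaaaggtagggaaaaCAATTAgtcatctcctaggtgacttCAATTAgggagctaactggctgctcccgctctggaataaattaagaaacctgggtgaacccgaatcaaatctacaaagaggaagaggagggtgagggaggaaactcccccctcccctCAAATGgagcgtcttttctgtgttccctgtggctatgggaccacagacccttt

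The 2 windows have little in common by these measures. The Zar1 promoter held 17 CpG pairs, 2 E-boxes and a GC box, and no NOBOX element. The Zar1l promoter held 3 CpG pairs, 2 E-boxes, a CCAAT box and 2 copies of TAATTG, which start 145 and 120 bases before the transcription start. Among 32851 promoters of this length 8% held TAATTG, 6.59% TAGTTG, 5.29% TAATTA and 13.6% TATAAA. An E-box was present in 72.3%, a GC box in 35.7% and a CCAAT box in 37.4%, and the median number of CpG pairs was 7. A match is a run of letters and was not tested as a binding site.

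Zar1 stood at 1017, 1038 and 1205 CPM in the cKO libraries and at 894, 719 and 1061 CPM in the WT libraries. WT replicate 3 reached into the cKO range, so the groups overlapped. The log2 fold change was 0.29 ± 0.14 (SE), with a 95% interval of -0.01 to 0.58 and an adjusted p (edgeR) of 0.116. Without WT replicate 3 the difference was 0.43 and passed the test (edgeR, adjusted p = 0.0207), as did the 0.40 found with library totals alone (0.038). With a smooth trend on transcript length removed it was 0.01, and with spike-in scaling -0.10, neither of them called. Part of these counts is uncertain. The Zar1 transcript matches the transcribed pseudogene Gm15847 at 95.2% identity over 1083 bases, and the treatment of reads with several possible origins is not known.

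Zar1l stood at 434, 466 and 423 CPM in cKO and at 571, 569 and 592 CPM in WT. Every cKO library was below every WT library, and the SD of the WT libraries was 2.22% of their mean. The difference on the log2 scale was -0.39 ± 0.10 (SE), with a 95% interval of -0.61 to -0.17 (edgeR, adjusted p = 0.00944). It was called in all 14 alternatives tried, with values from -0.79 (spike-in scaling) to -0.28 (library totals). Removing the trend on length gave -0.69. No other gene's transcript in GENCODE matched it at 80% identity over 100 bases.

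The ratio of the paralogs within a library needs no scaling between libraries. There were 2.35, 2.23 and 2.85 Zar1 counts per Zar1l count in cKO, against 1.57, 1.26 and 1.79 in WT. Every cKO library lay above every WT library. On the log2 scale the ratio was 1.30 ± 0.19 in cKO and 0.61 ± 0.25 in WT (SD, n = 3 each), a difference of 0.69 with a two-sided exact permutation p of 0.1, the smallest that 3 against 3 libraries allow. Per base of exon, Zar1 exceeded Zar1l 1.66-, 1.57- and 2.02-fold in cKO and 1.11-, 0.893- and 1.27-fold in WT. The pseudogene match above bears on this ratio too. Values per base also rest on the annotated length of Zar1l, whose untranslated regions span only 5 and 14 bases in GENCODE. Whether that annotation is complete was not tested.

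**Figure D2:**
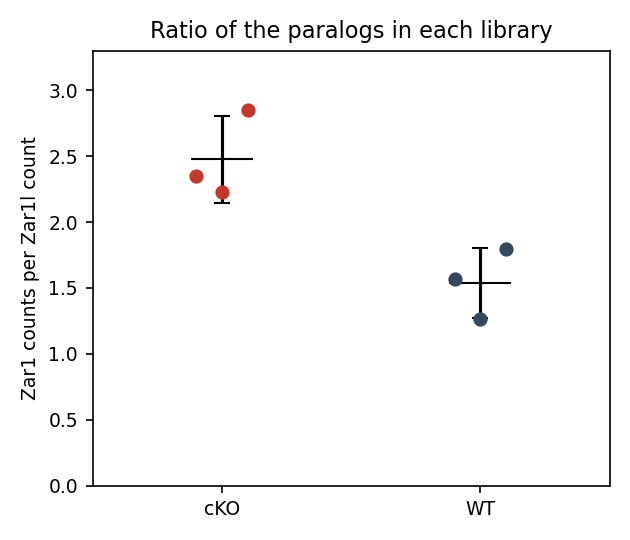
Zar1 counts per Zar1l count in each cKO library (red, left) and each WT library (dark blue, right), with mean ± SD of 3 libraries in black. The cKO ratios lie between 2.23 and 2.85 and the WT ratios between 1.26 and 1.79.

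The second role is the handling of chromatin at fertilization. NPM2, the oocyte nucleoplasmin, is a histone chaperone that organizes the nucleolus-like body and helps open chromatin in the egg. Npm2 lies on the minus strand of chromosome 14 (70647302 to 70653084). It stood at 1046, 1181 and 1110 CPM in cKO and at 1362, 1085 and 1228 CPM in WT. The ranges overlapped. Its log2 fold change was -0.14 ± 0.11 (SE, 95% interval -0.38 to 0.10), with an adjusted p (edgeR) of 0.348. The result depended on the scaling: with spike-in scaling the value was -0.54 (edgeR, adjusted p = 0.0315), and with the length trend removed -0.43 (edgeR, adjusted p = 0.011).

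TRIM28 is the co-repressor that KRAB zinc finger proteins recruit to silence transposons and to hold imprints, and mouse embryos from Trim28-deficient oocytes lose imprinted methylation to varying degrees. Trim28 lies on the plus strand of chromosome 7 (13024152 to 13031032), with 17 exon intervals. Its RefSeq promoter is shown as that of the 1 gene of the 8 that rose (chr7:13023902-13024201, plus strand).
Trim28 promoter: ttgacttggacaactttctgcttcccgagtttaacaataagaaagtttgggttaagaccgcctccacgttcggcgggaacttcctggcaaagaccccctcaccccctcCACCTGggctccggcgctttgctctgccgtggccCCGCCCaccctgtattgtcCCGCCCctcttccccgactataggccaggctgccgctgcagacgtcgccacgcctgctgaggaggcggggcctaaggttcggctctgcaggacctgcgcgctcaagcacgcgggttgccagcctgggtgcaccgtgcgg
It held 23 CpG pairs, more than 78.5% of all promoters, with 2 GC boxes and 1 E-box. Trim28 stood at 162, 132 and 219 CPM in cKO and at 89.5, 89.4 and 112 CPM in WT. All cKO libraries were higher than all WT libraries, and the cKO libraries were the more scattered, with an SD of 25.9% of the mean against 13.2% in WT. The rise was 0.82 ± 0.17 on the log2 scale (SE, 95% interval 0.45 to 1.19), with an adjusted p (edgeR) of 0.00243. Leaving out single libraries gave 0.61 to 1.00, all called. Spike-in scaling ended the call, with a value of 0.43 and an adjusted p (edgeR) of 0.1003.

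The third role is transcription. Basonuclin, the product of Bnc1, is a zinc finger protein of germ cells and basal keratinocytes that binds promoters of ribosomal RNA genes as well as promoters read by RNA polymerase II, and oocytes lacking it give embryos that fail early. SEBOX is a homeobox protein of the oocyte on which early mouse embryos depend. POU5F1, also called OCT4, is the POU-domain factor of pluripotent and germ cells. Bnc1 lies on the minus strand of chromosome 7 (81966662 to 81992299) and Sebox on the plus strand of chromosome 11 (78503513 to 78505081). Their RefSeq promoters are shown since these genes fell most among the 8 (chr7:81992250-81992549, minus strand, and chr11:78503263-78503562, plus strand).
Bnc1 promoter: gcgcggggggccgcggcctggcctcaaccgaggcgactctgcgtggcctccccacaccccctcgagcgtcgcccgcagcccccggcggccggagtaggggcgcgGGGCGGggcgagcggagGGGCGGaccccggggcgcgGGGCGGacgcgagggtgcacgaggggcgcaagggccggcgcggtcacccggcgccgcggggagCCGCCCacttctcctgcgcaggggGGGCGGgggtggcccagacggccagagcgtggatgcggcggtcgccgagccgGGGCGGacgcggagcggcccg
Sebox promoter: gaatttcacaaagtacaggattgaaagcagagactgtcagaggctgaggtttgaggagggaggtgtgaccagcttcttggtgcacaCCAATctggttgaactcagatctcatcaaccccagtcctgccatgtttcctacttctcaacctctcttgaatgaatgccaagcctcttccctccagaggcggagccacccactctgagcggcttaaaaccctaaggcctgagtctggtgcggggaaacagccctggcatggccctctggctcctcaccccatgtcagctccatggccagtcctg

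These promoters differ widely in base composition. The Bnc1 promoter had 50 CpG pairs, more than 99.1% of all promoters, a GC content of 83.3% and 6 GC boxes, and no E-box or NOBOX element. The Sebox promoter had 3 CpG pairs, a GC content of 54.7% and 1 CCAAT box, and none of the other motifs. Over all promoters the median GC content was 52.7%. The 3 genes that fell thus had 50, 3 and 3 CpG pairs (Bnc1, Sebox and Zar1l).

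Sebox stood at 32.0, 41.1 and 35.7 CPM in cKO and at 130.4, 196 and 122 CPM in WT. The highest cKO library reached 41.1 CPM and the lowest WT library 122 CPM, so the groups were far apart, although WT replicate 2 stood above the other WT libraries. Its log2 fold change was -2.04 ± 0.18 (SE, 95% interval -2.44 to -1.65), with an adjusted p (edgeR) of 1.15e-05. Without WT replicate 2 it was -1.79. Of all genes tested 5.09% had a larger change in either direction. The call held in all 14 alternatives, which ran from -2.48 to -1.79. Sebox counts per library can also be set against those of other genes of the 8. There were 79.3, 63.2 and 77.4 Uchl1 counts per Sebox count in cKO and 19.5, 11.9 and 20.1 in WT, and 5.06, 3.21 and 6.13 Trim28 counts per Sebox count in cKO and 0.687, 0.456 and 0.912 in WT.

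Bnc1 stood at 40.2, 39.6 and 42.2 CPM in cKO and at 102, 117 and 106 CPM in WT. The replicates were close, with an SD of 3.3% of the mean in cKO and 7.27% in WT, and the groups did not overlap. This came to -1.41 ± 0.13 on the log2 scale (SE, 95% interval -1.69 to -1.13), with an adjusted p (edgeR) of 1.22e-05. The 14 alternatives gave -1.82 to -1.29, all called. Exons of Sebox and Bnc1 overlap no other gene of the table, and no other GENCODE gene's transcript matched theirs at 80% identity over 100 bases.

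Pou5f1 lies on the plus strand of chromosome 17 (35506032 to 35510777). It stood at 67.8, 59.9 and 76.4 CPM in cKO and at 51.1, 49.3 and 68.9 CPM in WT. WT replicate 3 lay inside the cKO range. Its log2 fold change was 0.27 ± 0.16 (SE, 95% interval -0.08 to 0.62), with an adjusted p (edgeR) of 0.206. As for Zar1, leaving out WT replicate 3 gave a call, at 0.43 (edgeR, adjusted p = 0.0412). Spike-in scaling gave -0.11, not called. The Pou5f1 transcript matches 3 processed pseudogenes at 84.2% to 87.2% identity and the antisense gene Gm19553 fully over 171 bases, so its counts are uncertain to an unknown degree.

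The last of the 8 acts on ubiquitin. UCHL1 is a ubiquitin C-terminal hydrolase and one of the most abundant proteins of oocytes and neurons. Uchl1 lies on the plus strand of chromosome 5 (66676121 to 66687234). It stood at 2541, 2597 and 2763 CPM in cKO and at 2548, 2326 and 2454 CPM in WT. Those ranges overlapped and were narrow, with an SD of 4.38% of the mean in cKO and 4.56% in WT. The difference on the log2 scale was 0.11 ± 0.10 (SE, 95% interval -0.10 to 0.32; edgeR, adjusted p = 0.397), and none of the 14 alternatives called it. Its direction depended on the processing, with -0.29 under spike-in scaling and -0.16 with the length trend removed. The antisense gene Uchl1os overlaps 214 exonic bases of Uchl1, or 18.7%, and the protocol keeps no strand. Uchl1os averaged 0.728 ± 0.137 CPM in cKO and 0.882 ± 0.108 CPM in WT (SD, n = 3 each).

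**Figure D3:**
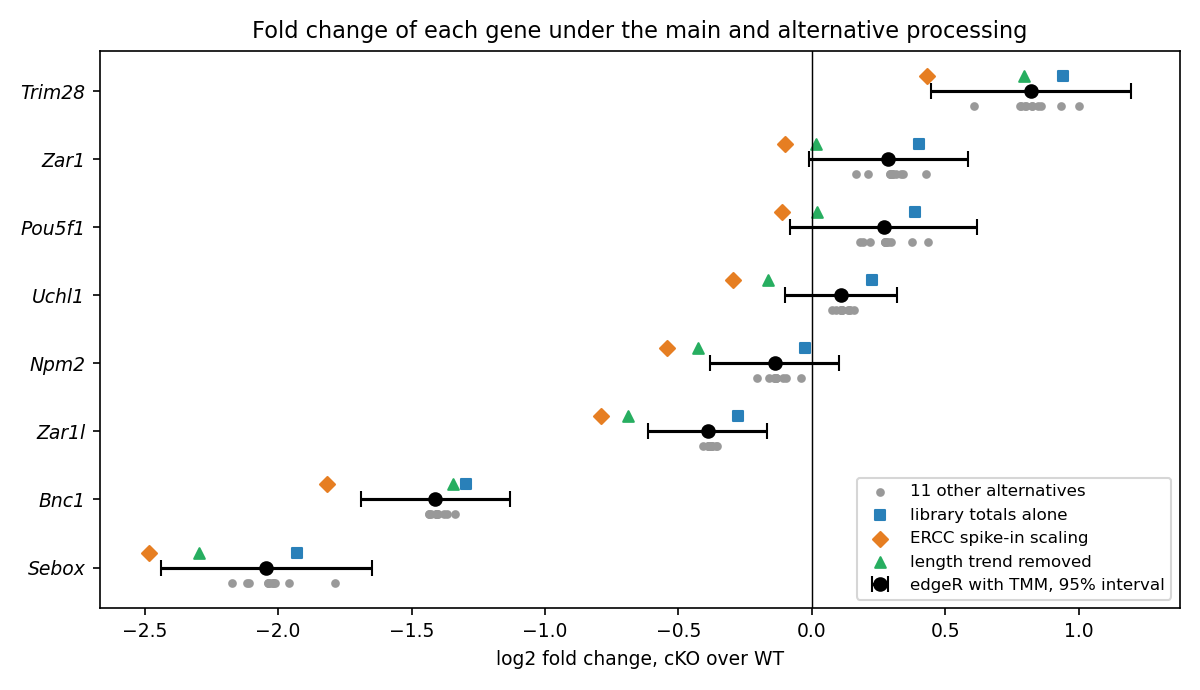
Log2 fold change of cKO over WT for the 8 genes on the horizontal axis, with edgeR's value and 95% interval in black, 3 alternatives that change the scaling in colour and the other 11 alternatives in grey. Sebox, Bnc1 and Zar1l stay below 0 and Trim28 above 0 in all of them, while spike-in scaling lies to the left of library totals for every gene. Those scalings differ only in a factor per library, so that order comes from the scaling and not from the genes shown.

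Set per exonic length, the same 4 of the 8 genes came first in both genotypes. In CPM per kb of exon, the cKO means were 2296 ± 101 for Uchl1, 1115 ± 68 for Npm2, 863 ± 82 for Zar1 and 495 ± 25 for Zar1l (SD, n = 3). The WT means were 2130 ± 97 for Uchl1, 1229 ± 139 for Npm2, 708 ± 136 for Zar1 and 649 ± 14 for Zar1l (SD, n = 3). Among all 25239 genes these 4 ranked between 8 (Uchl1) and 116 (Zar1l) in cKO and between 12 (Uchl1) and 93 (Zar1l) in WT. The other 4 ranked between 1853 (Trim28) and 5674 (Bnc1) in cKO and between 853 (Sebox) and 3394 (Bnc1) in WT. Their levels in cKO were 52.8 ± 13.6 CPM per kb for Trim28, 47.1 ± 5.7 for Pou5f1, 28.2 ± 3.5 for Sebox and 8.72 ± 0.29 for Bnc1. In WT, Sebox led these 4 with 116 ± 31 CPM per kb, followed by Pou5f1 (39.1 ± 7.5), Trim28 (29.9 ± 4.0) and Bnc1 (23.2 ± 1.7). Sebox thus held place 7 of 8 in cKO and place 5 in WT. Neighbours whose libraries overlapped were Trim28 and Pou5f1 in both genotypes, and Zar1 and Zar1l in WT. The level per kb and the rank of Zar1l rest on its annotated length, with the short untranslated regions described above. Together the 8 genes took 0.559% to 0.621% of counts in a cKO library and 0.491% to 0.56% in a WT library.

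**Figure D4:**
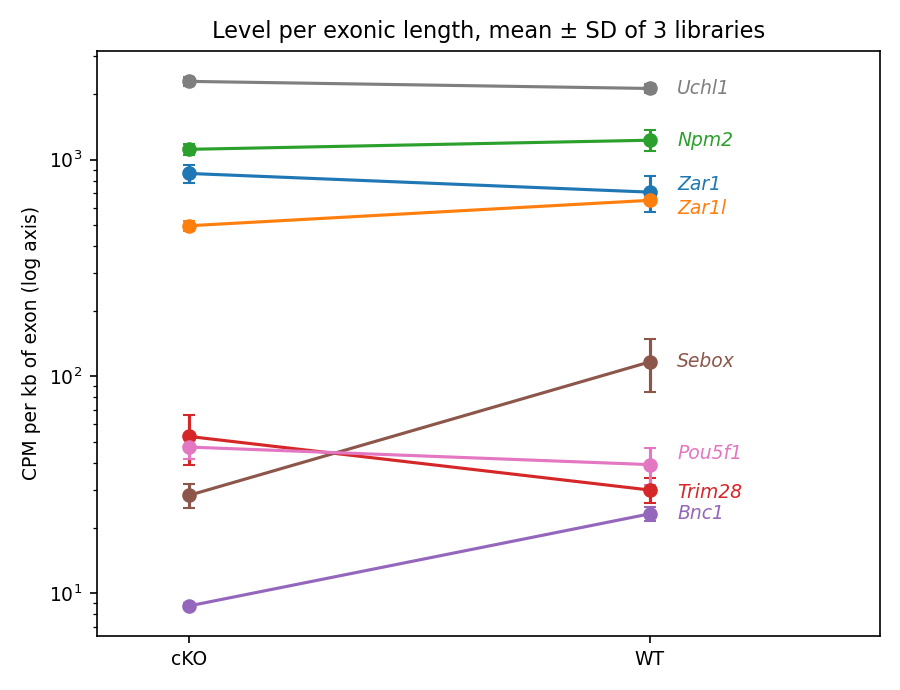
Mean level of each gene in CPM per kb of exon, on a log axis, in cKO (left) and WT (right), with SD over 3 libraries. Sebox lies at 28.2 in cKO and 116 in WT and crosses the lines of Pou5f1 and Trim28, while Zar1 and Zar1l lie apart in cKO and close together in WT.

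The transcripts of these genes are mostly short. Apart from Trim28 (3245 bases) and Bnc1 (4646), their GENCODE transcripts span 895 to 1429 bases. The median transcript of the tested genes measured 2953 bases. Their 3′ untranslated regions in GENCODE run from 14 bases (Zar1l) to 1671 bases (Bnc1), with a median of 946.5 bases over tested genes. Motifs were looked for in the last 100 bases of that region, which 7 of the 8 genes have, all but Zar1l. The letters TTTTAT and TTTTAAT are the usual forms of the cytoplasmic polyadenylation element, through which CPEB proteins hold or release stored mRNA, and neither was found there in these 7. They occur in the same window in 15.1% and 5.5% of 12265 tested genes. The signal AATAAA was present for 6 of the 7, all but Bnc1, and in 66.4% of tested genes. A C at the end of a codon is a position at which NAT10 is reported to acetylate mRNA. Acetylation was not measured in these libraries. In the share of codons ending in C, Zar1 had 38.95%, higher than 89.4% of tested genes. Npm2 had 25%, higher than 29% of them. The 3 genes that fell lay between these, with 33.2% (Bnc1), 30.8% (Zar1l) and 27.2% (Sebox), as did Uchl1 with 34.4%, Pou5f1 with 30.3% and Trim28, which rose, with 27.9%.

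Genes that share a role with the 8 were taken from lists, and are described by counts of edgeR calls beside the 40.2% of all genes. Counts under another scaling have their own background over all 14114 genes tested. It was 1182 higher and 4832 lower with spike-in scaling, and 3450 and 2253 with totals alone. With the length trend removed it was 2407 higher and 3109 lower. Of 19 tested genes for storage and translational control of maternal mRNA, the group of ZAR1, 2 rose and 8 fell, and their median log2 value was -0.15 (0 and 11 with spike-in scaling). Tent5c, a poly(A) polymerase gene, averaged 786 ± 44 CPM in cKO and 1514 ± 25 CPM in WT, and Pabpn1l, an oocyte poly(A)-binding protein gene, 244 ± 43 CPM in cKO and 563 ± 153 CPM in WT (SD, n = 3 each). Of 21 histone chaperone genes, the group of NPM2, 5 rose and 5 fell, with a median of 0.07 (0 and 8 with spike-in scaling). The nucleosome assembly genes Nap1l4 and Nap1l1 changed in opposite directions, by -0.55 ± 0.12 and 0.57 ± 0.13 (SE) on the log2 scale. Of 22 genes of silencing through TRIM28 and KRAB zinc fingers 0 rose and 2 fell, with a median of -0.04. At an unadjusted p under 0.05 the counts were 3 higher and 3 lower, limma-voom called 0 and 2, and DESeq2 3 and 2. The balance turned with the scaling, at 0 higher and 8 lower by spike-ins, 5 and 1 by totals alone, and 2 and 1 with the length trend removed. Those that fell were Resf1 (log2 -0.83 ± 0.14, SE), a partner of the methyltransferase SETDB1, and Trim24 (-0.42 ± 0.13), a relative of Trim28. Setdb1 itself and Zfp57, the imprint-binding zinc finger gene, were not called.

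Among 16 genes of RNA polymerase I initiation, listed with Bnc1 for its binding to ribosomal RNA genes, 5 rose and 5 fell, with a median of -0.14 (3 and 8 with spike-in scaling). Rrn3, an initiation factor, averaged 49.0 ± 6.3 CPM in cKO and 130.3 ± 12.2 CPM in WT, and Taf1c, a promoter selectivity subunit, 11.7 ± 3.1 CPM in cKO and 3.11 ± 0.88 CPM in WT (SD, n = 3 each). Bnc2, the paralog of Bnc1, is counted among the 16 and fell to 50.3 CPM in cKO, against 76.2 CPM in WT (log2 -0.60; edgeR, adjusted p = 0.00748). Of 14 tested homeobox, helix-loop-helix and general transcription factors of the oocyte, the group of SEBOX, 4 rose and 1 fell, with a median of 0.08. That balance was 0 and 5 with spike-in scaling and 1 and 4 with the length trend removed. The calls over all genes also moved toward lower under both. Taf4b, a TFIID subunit gene, had a log2 fold change of 0.87 ± 0.16 and Figla one of 0.54 ± 0.15 (SE), both called. Of 15 tested genes of the pluripotency network 4 rose and 4 fell, with a median of 0.16 (2 and 5 with spike-in scaling). Dppa4, a chromatin factor, averaged 62.8 ± 7.7 CPM in cKO and 18.9 ± 2.5 CPM in WT, and Pou2f1, another POU-domain gene, 44.8 ± 4.3 CPM in cKO and 83.7 ± 2.1 CPM in WT (SD, n = 3 each). The other 7 of the 22 listed, Sox2 and Nanog among them, had too few counts to be tested. Of 10 genes for ubiquitin, its hydrolases and its activating enzymes 3 rose and 1, an activating enzyme gene, fell. Their median was 0.23 (0 and 3 with spike-in scaling, 1 and 3 with the length trend removed). Rps27a, which encodes ubiquitin fused to a ribosomal protein, rose with a log2 fold change of 0.52 ± 0.12 (SE).

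The last lists hold other maternal-effect genes. Of 9 genes listed with the subcortical maternal complex, the protein lattice under the egg membrane, 2 rose and 4 fell, with a median of -0.27 (0 and 6 with spike-in scaling). Nlrp9b averaged 422 ± 131 CPM in cKO and 1075 ± 162 CPM in WT, and Nlrp4f 1054 ± 243 CPM in cKO and 2140 ± 296 CPM in WT (SD, n = 3 each), and both have close paralogs that leave their counts uncertain. Of 28 further maternal-effect genes 5 rose and 6 fell, with a median of 0.08 (2 and 11 when scaled by spike-ins, 11 and 5 by totals alone). Btg4, an adaptor of mRNA deadenylation, averaged 1327 ± 206 CPM in cKO and 2726 ± 234 CPM in WT, and Gclm, a glutathione synthesis gene, 52.8 ± 22.7 CPM in cKO and 16.4 ± 2.6 CPM in WT (SD, n = 3 each). The differences between these lists and the 8 genes were not tested.

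**Figure D5:**
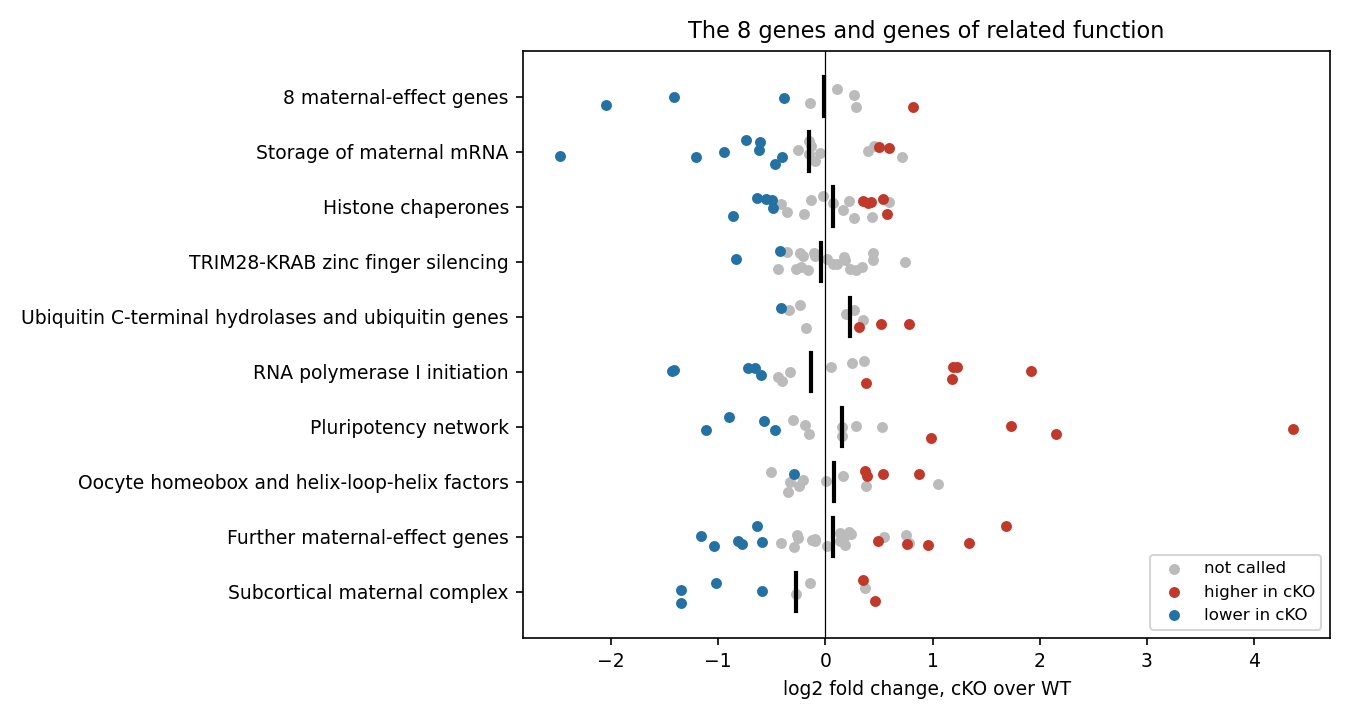
Log2 fold change of cKO over WT for each tested gene of the 8 and of 9 lists of related function, coloured by edgeR's call, with each list's median as a black bar. Red and blue points occur in every list except silencing through TRIM28 and KRAB zinc fingers, which has 2 blue points and no red ones, and the medians lie between -0.27 and 0.23.

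The genes whose pattern over the 6 libraries was most like that of each of the 8 were found by Pearson's r of log2 CPM among 7964 genes with a mean of at least 10 CPM. For Sebox they were Armc2 and Fbxw4 (r = 0.999 and 0.998), for Bnc1 Igsf3 and Slc23a3 (both r = 0.997), and for Zar1l Frmpd1 and Osbpl8 (both r = 0.999). For Trim28 they were Rgmb and Mex3c (r = 0.997 and 0.996), for Zar1 Ctif and Gpr137 (both r = 0.993), and for Pou5f1 Mapkbp1 and Cabin1 (r = 0.996 and 0.995). Npm2 was nearest to Vti1b and Gas8 (r = 0.998 and 0.988), and Uchl1 to Pop5 and Rps9 (r = 0.992 and 0.981). These values rest on 6 libraries in 2 genotypes, and many genes reached high ones. As many as 1452 genes had an r over 0.9 with Zar1l and 1307 with Sebox, against 37 with Npm2. Among the 8 themselves, Sebox and Bnc1 had an r of 0.984, and Zar1 and Pou5f1 one of 0.909.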

How the data were processed

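The study measured poly(A) RNA of mouse oocytes, 3 cKO and 3 WT libraries, grouped by sample titles. The authors deposited raw counts per gene with exonic lengths; per the submitters' processing notes, featureCounts, STAR 2.7.10a and Trim Galore 0.6.7 were used with mm10. The treatment of multi-mapped reads and of strand is not given in the sources used. A second deposited table gives mapped and ERCC spike-in shares as fractions of reads, with an unstated denominator taken here as all reads; ERCC shares were 0.34% to 0.43% in cKO and 0.25% to 0.32% in WT. There are no molecular identifiers. A count of 0 allows up to 3 counts, or 0.1001 to 0.153 CPM, for counting error only.

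Here, edgeR 4.0.16 (R 4.3.3; TMM factors, filterByExpr with minimum count 10, quasi-likelihood F test without a block) was fitted to all genes, with Benjamini-Hochberg adjustment, two-sided, at 0.05. SEs are the log2 fold change divided by the square root of F, and 95% intervals use t quantiles on the total degrees of freedom of the fit. CPM uses TMM-scaled totals. The paralog ratio used a pseudocount of 0.5 and an exact permutation test over 20 assignments. The fits to all libraries, except that with spike-in scaling, were tested on simulated data. The other steps were not. Alternatives were other scalings, no filter, DESeq2 1.42.0, limma-voom (limma 3.58.1), a replicate block, a length trend removed per library (mgcv 1.9.3) and leaving out each library. Promoters came from RefSeq (GRCm38.p6), in which 7 of the 8 genes matched, with the upstream start used for Pou5f1. Transcripts came from GENCODE M21, 1 principal coding transcript per gene, and were compared with blastn 2.17.0. The genes named from each list were the 2 called at the lowest p, or else the 2 of highest level, except that 1 such gene is not reported here; Setdb1, Zfp57, Bnc2, Sox2, Nanog, Tnfaip6, Inha, Inhbb, Hsd17b1 and Gja1 were added after their values were seen. The 8 genes and all lists were chosen with earlier results of these data known.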

Additional observations from a re-analysis of the deposited data

How the results depend on the processing

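Across the 14 alternatives, Sebox, Bnc1 and Zar1l kept their call and direction, and Trim28 kept its direction and lost its call with ERCC spike-in scaling (0.43, adjusted p = 0.1003 in edgeR's test). That scaling turned Zar1 (-0.10), Uchl1 (-0.29) and Pou5f1 (-0.11), none of them called, and called Npm2 (-0.54). Removing the length trend turned Uchl1 (-0.16) and called Npm2 (-0.43). Library totals alone called Zar1 (0.40), as did leaving out WT replicate 3 (0.43), which also called Pou5f1 (0.43). Spike-in scaling changes only a factor common to all genes of a library. With it the median log2 fold change over all genes tested moved from 0.01 to -0.39. Why that factor differed between the genotypes, and the cause of the other shifts, was not tested. Leaving out 1 library at a time gave 0.17 to 0.43 for Zar1, -0.41 to -0.36 for Zar1l, -0.20 to -0.04 for Npm2, -1.43 to -1.34 for Bnc1, -2.17 to -1.79 for Sebox, 0.61 to 1.00 for Trim28, 0.08 to 0.16 for Uchl1 and 0.18 to 0.43 for Pou5f1. It gave 4383 to 5485 genes called in all, and 4 to 6 of the 8 genes. The difference between cKO and WT in the log2 paralog ratio was then 0.55 to 0.81. Over all 14 alternatives 4 to 6 of the 8 genes were called, against 4. With the replicate number as a block (replicate block) 6199 genes were called against 5674, and Zar1 was called at 0.30 (adjusted p = 0.0266 in edgeR's test). The labels do not say whether the numbers pair the libraries. Deviations of same-numbered libraries from their group means correlated at -0.02, 0.06 and 0.11, and not every library correlated best with its own number. So few libraries cannot decide whether they were paired. With 3 libraries a genotype, changes as small as those of Uchl1 and Npm2 are not resolved, and the p-values rest on libraries whose origin from separate females is not stated.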
